A study of Mus musculus with 8 samples.

Results

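The loops described here were contacts between acetylated sites of mouse chromosome 13. They lay outside 55 to 75 Mb, bounds set here for an interval exchanged between 2 inbred strains, and outside the histone genes. A loop was a member when both of its anchors lay on chromosome 13 below 55 Mb or above 75 Mb of GRCm38 and when neither anchor touched the histone gene clusters, so that the nearest member anchors around these were chr13:21450001-21455000 and chr13:23990001-24005000. The rule took 11295 of the 415681 loops in the deposited table, with 6494 below 55 Mb and 4801 above 75 Mb. Of the other loops of chromosome 13, 3952 lay within 55 to 75 Mb, 809 touched the histone clusters and 412 crossed a boundary. The boundaries were drawn with differences by interval allele in these same libraries in view. Differences by interval allele are therefore given as a description, without a test, and tests are given for the background genome, which the rule did not use.

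The study measured H3K27ac HiChIP in mouse embryonic stem cells, with 4 lines and 2 technical replicates of each. B6 was line B6 5-1 of strain C57BL/6J and D2 was line D2 5-5 of strain DBA/2J. B6-13D2 was line QJ 6-1, labelled B6.D2-(rs30079041-rs51756099)/Bakr, so it had the B6 genome with a D2 interval on chromosome 13. D2-13B6 was line XE 2-4, the reciprocal congenic, in which a B6 interval lay in the D2 genome. Its sample labels read D2.B6-(rs29224292-rs13469455)/Bakr, while the series text gave rs51756099 as the end marker, and marker positions were not used here. All lines were grown with LIF, PD0325901 and CHIR99021, which keep embryonic stem cells undifferentiated. By their labels, B6 and B6-13D2 share the B6 genome outside the interval, and D2 and D2-13B6 share the D2 genome there. Each genotype was 1 line, so genotype and line cannot be told apart, and p-values measure only the spread between technical replicates.

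Acetylation of lysine 27 on histone H3 marks active promoters and enhancers. HiChIP ligates DNA ends held near each other and enriches fragments that carry a chosen mark, so its read pairs report contacts of acetylated chromatin. In embryonic stem cells such contacts tie enhancers to the promoters of genes in use, and a change in the acetylation of an anchor or in its contacts both change the count.

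Library totals ran from 737955 to 1425304 counts, of which 16723 to 28685 lay in the chromosome 13 loops described here. Of the 11295 loops, 4383 had 1 count over all 8 libraries, and 957 (8.47%) reached 5 counts in 2 or more libraries and were tested, against 10.8% of all loops. The tested loops held 74.7% to 81.3% of the members' counts, with a median of 6 to 9 counts per loop and library, so small changes of single loops were below what this depth can show. Their median span was 45 kb, against 570 kb for all 11295. Across the 957 loops the 2 replicates of a line correlated with r of 0.831 to 0.893, which is a correlation across loops that share anchors. Anchors at 8 embryonic stem cell genes such as Pou5f1 and Nanog held 3139 to 3939 CPM (counts scaled to a common library size) in sum in each library. Of 5 fibroblast markers 3 had an anchor, with 46.4 to 80.6 CPM, and of 4 trophoblast markers 1 did, with 8.11 to 14.3 CPM. None of the 4 primitive endoderm and 3 neural markers had an anchor.

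The D2-13B6 libraries stood apart in the total of these loops. Chromosome 11 was left out of the totals because it held 13.9% and 14.0% of the counts in the D2-13B6 libraries and 10.0% to 10.6% in the other 6. Of the remaining counts, the members held 2.29% (Wilson 95% interval 2.26% to 2.32%) and 2.52% (2.48% to 2.56%) in the B6 libraries. They held 2.49% (2.46% to 2.52%) and 2.36% (2.33% to 2.38%) in B6-13D2, and 2.58% (2.55% to 2.62%) and 2.56% (2.53% to 2.6%) in D2. In D2-13B6 they held 2.08% (2.05% to 2.1%) and 2.04% (2.02% to 2.07%), below all other libraries. These intervals cover counting error within a library only, and read pairs carried no molecular identifiers. Set against D2, the mean share in D2-13B6 came to 0.800 as a ratio, while the other autosomes and the X chromosome, without 11, ran from 0.944 to 1.07, and the loops within 55 to 75 Mb stood at 0.951. By background, the share was 2.32% ± 0.297 in the 4 D2 background libraries and 2.41% ± 0.109 in the 4 B6 background libraries (SD, n = 4 libraries from 2 lines), a difference within the spread (exact permutation test over libraries, two-sided, p = 0.571, smallest possible 0.0286). That test treats technical replicates as exchangeable, and the lines D2 and D2-13B6 lay at opposite ends within the D2 background. Counts of loops, anchors and windows called by background, and the loops and anchors named by rule, are therefore also given without the D2-13B6 line. The gene lists, groups of loops and span classes are given for the full set only.

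Promoter sequences are shown for the genes at anchors whose loops differed most between backgrounds and for which a RefSeq promoter entry was matched, so that the sequence at the changed contacts can be read beside the counts. Of 9 genes taken by the rule for named loops, 3 matched, namely Glrx, Paip1 and Gcnt2. Ankrd31, Klf6 and Hmgcs1 were added after their values were seen, because groups of called loops ended on them. Each sequence is the 250 bases before the RefSeq start on GRCm38.p6, plus strand, 5′ to 3′. The windows are chr13:75839635-75839884 for Glrx, chr13:96748043-96748292 for Ankrd31, chr13:5861239-5861488 for Klf6, chr13:119428350-119428599 for Paip1, chr13:119690101-119690350 for Hmgcs1, and chr13:40859518-40859767 and chr13:40886508-40886757 for the 2 Gcnt2 starts. Capitals mark matches on either strand to GGGCGG (the GC box), CCAAT (the CCAAT box), TATAAA (the TATA box) or CACGTG (the E-box), and no match overlapped another. The first 3 genes had loops higher with the D2 background and the last 3 had loops lower.
Glrx: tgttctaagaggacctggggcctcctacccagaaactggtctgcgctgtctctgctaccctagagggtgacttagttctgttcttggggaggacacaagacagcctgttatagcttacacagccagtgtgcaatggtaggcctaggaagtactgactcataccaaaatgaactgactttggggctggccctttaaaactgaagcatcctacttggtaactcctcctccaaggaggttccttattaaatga
Ankrd31: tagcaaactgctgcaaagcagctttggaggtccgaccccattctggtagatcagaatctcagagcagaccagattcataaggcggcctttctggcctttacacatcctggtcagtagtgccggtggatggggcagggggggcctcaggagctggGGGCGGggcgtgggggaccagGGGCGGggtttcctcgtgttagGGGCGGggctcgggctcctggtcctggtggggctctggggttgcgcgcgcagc
Klf6: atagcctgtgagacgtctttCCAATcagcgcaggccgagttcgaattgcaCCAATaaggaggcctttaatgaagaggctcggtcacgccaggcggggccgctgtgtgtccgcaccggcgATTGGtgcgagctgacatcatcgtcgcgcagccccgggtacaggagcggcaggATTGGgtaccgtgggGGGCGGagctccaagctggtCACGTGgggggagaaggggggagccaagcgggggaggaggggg
Paip1: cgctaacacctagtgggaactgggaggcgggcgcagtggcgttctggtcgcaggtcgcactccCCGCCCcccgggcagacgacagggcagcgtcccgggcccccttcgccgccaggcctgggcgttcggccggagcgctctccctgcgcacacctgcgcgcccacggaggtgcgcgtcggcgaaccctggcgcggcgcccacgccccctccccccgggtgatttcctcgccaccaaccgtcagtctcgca
Hmgcs1: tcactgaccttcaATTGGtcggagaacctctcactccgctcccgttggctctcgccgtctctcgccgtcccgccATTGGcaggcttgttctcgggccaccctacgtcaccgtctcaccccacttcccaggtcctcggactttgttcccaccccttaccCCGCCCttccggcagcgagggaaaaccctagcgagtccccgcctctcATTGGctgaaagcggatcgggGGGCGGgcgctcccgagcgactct
Gcnt2 at its first start: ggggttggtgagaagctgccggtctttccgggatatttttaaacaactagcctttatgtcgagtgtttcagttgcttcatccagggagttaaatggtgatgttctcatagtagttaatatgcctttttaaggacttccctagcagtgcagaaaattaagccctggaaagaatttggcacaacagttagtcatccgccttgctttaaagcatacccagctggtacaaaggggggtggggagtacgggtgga
Gcnt2 at its second start: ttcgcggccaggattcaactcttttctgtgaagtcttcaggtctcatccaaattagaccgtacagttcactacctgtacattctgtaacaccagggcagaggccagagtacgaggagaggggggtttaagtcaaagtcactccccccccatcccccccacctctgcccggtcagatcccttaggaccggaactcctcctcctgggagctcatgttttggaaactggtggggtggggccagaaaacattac

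Hmgcs1 held 2 GC boxes and 3 CCAAT boxes, Klf6 held 1 GC box, 4 CCAAT boxes and 1 E-box, Ankrd31 held 3 GC boxes and Paip1 held 1. Neither Gcnt2 start nor Glrx held a match to any of the 4 motifs in this window. Among all 32817 RefSeq mouse promoters of the same window, 32.7% held GGGCGG, 33.8% CCAAT, 12.4% TATAAA and 6.02% CACGTG.

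The first comparison asked which of these loops differed between the D2 and the B6 genome, averaged over both interval alleles. With the D2 background 34 of the 957 tested loops were higher and 54 were lower (edgeR quasi-likelihood test, Benjamini-Hochberg false discovery rate, FDR, of 0.05 over all tested loops). This made 88 called loops or 9.2%, close to the 8.85% called among all 44706 tested loops, and by direction 4.28% of all tested loops were higher and 4.57% lower. The median log2 difference of the members was −0.07, against 0.02 for all tested loops. DESeq2 called 38 of the 445 members it gave an adjusted p, 16 higher and 22 lower, or 8.54% against 6.09% of all such loops (2.9% higher and 3.19% lower). Without the D2-13B6 line 44 of 866 tested members were called, 28 higher and 16 lower, or 5.08% against 4.19% of all loops tested in that fit (2.19% higher and 2% lower). The median of the members there was 0.11, against 0.02 over all loops. Of the 88 loops, 41 stayed called (25 of the 34 higher and 16 of the 54 lower) and 87 had the same sign. In 67 of the 88 called loops every library of one background exceeded every library of the other, and over all tested members this held for 104 of 957, against 10.8% of all tested loops.

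Loops higher with the D2 background were led by contacts in regions with and without annotated promoters. A loop of neighbouring anchors at chr13:19950001-19955000 and chr13:19960001-19970000, with no gene start within 5 kb, held 11.3 and 15.9 CPM in B6, 23.7 and 17.0 in B6-13D2, 168 and 200 in D2, and 79.55 and 90.75 in D2-13B6. All D2 background libraries exceeded all B6 background libraries, and D2 exceeded D2-13B6. Its log2 difference by background was 2.93 (SE 0.17, edgeR FDR 3.61e-61), the smallest FDR among the members.

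Contacts inside the anchor chr13:53120001-53165000, in the body of Ror2, a receptor for Wnt ligands, held 160 and 157 CPM in B6, 114 and 119 in B6-13D2, 263 and 282 in D2, and 258 and 278 in D2-13B6. The groups did not overlap, and the log2 difference was 0.99 (SE 0.10, edgeR FDR 2.16e-19). The contact of Glrx, which reduces glutathione-bound protein disulfides, with Rhobtb3 joined chr13:75830001-75845000 with chr13:75870001-75880000. It held 6.18 and 13.3 CPM in B6, 2.06 and 3.69 in B6-13D2, 22.4 and 18.3 in D2, and 23.4 and 23.1 in D2-13B6. The groups did not overlap here either (log2 difference 2.01, SE 0.32, edgeR FDR 5.6e-08).

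A further 2 loops were almost empty in the B6 background. Contacts inside chr13:33050001-33065000, with no gene start within 5 kb, had 2 and 3 counts in B6, 0 and 0 in B6-13D2, 37 and 35 in D2, and 40 and 19 in D2-13B6. As a ratio of count rates this was 24.2 times higher with the D2 background (exact 95% interval 10.1 to 75.9 for counting error, edgeR FDR 7.17e-28). Contacts of chr13:102825001-102830000 with chr13:102835001-102845000, in the body of the kinase gene Mast4, had 0 and 0 counts in B6, 1 and 4 in B6-13D2, 13 and 17 in D2, and 23 and 10 in D2-13B6. The ratio of rates was 11.7 (4.74 to 37.2, edgeR FDR 2.92e-12). In both loops the D2 background libraries lay above all others, but the counts of D2-13B6 replicate 2 were well below those of replicate 1. Each loop reached 5 counts only in D2 background libraries. It thus passed the filter through the group where it was high, and its ratio is a description.

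Loops lower with the D2 background were led by contacts at Nnt and at Stard3nl. Contacts inside chr13:119405001-119435000, which holds the starts of Nnt, the mitochondrial transhydrogenase that makes NADPH, and Paip1, a partner of poly(A)-binding protein, held 109 and 99.6 CPM in B6, 154 and 136 in B6-13D2, 36.6 and 31.3 in D2, and 32.1 and 24.5 in D2-13B6. The groups did not overlap and B6-13D2 stood highest (log2 difference −1.98, SE 0.15, edgeR FDR 1.44e-36). Contacts inside chr13:19380001-19400000 at Stard3nl, a cholesterol-binding protein of late endosomes, held 46.3 and 41.2 CPM in B6, 57.7 and 42.8 in B6-13D2, 2.36 and 11.7 in D2, and 7.30 and 9.36 in D2-13B6. All D2 background libraries were below all others (log2 difference −2.61, SE 0.25, edgeR FDR 6.84e-23).

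Contacts inside chr13:96995001-97025000, in the body of 1700029F12Rik, held 79.3 and 63.8 CPM in B6, 52.5 and 52.4 in B6-13D2, 21.2 and 18.3 in D2, and 10.2 and 13.7 in D2-13B6. The log2 difference was −1.99 (SE 0.20, edgeR FDR 3.36e-21), without overlap of the groups. The loop between 2 starts of Gcnt2, the enzyme that branches the I blood group antigen, joined chr13:40845001-40875000 with chr13:40880001-40925000, whose sequences are shown above. It held 364 and 311 CPM in B6, 425 and 422 in B6-13D2, 245 and 252 in D2, and 232 and 222 in D2-13B6. It was the most abundant of the 11 loops named here, and its fold was the smallest of them (log2 difference −0.67, SE 0.09, edgeR FDR 3.16e-11).

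Contacts inside chr13:113835001-113870000 in the body of Arl15, a small GTPase, held 137 and 141 CPM in B6, 195 and 181 in B6-13D2, 129 and 104 in D2, and 75.9 and 65.5 in D2-13B6. The D2 values came close to those of B6, and the difference (log2 −0.83, SE 0.12, edgeR FDR 2.73e-10) was no longer called without the D2-13B6 line (−0.44, FDR 0.0742). Contacts of chr13:106815001-106820000 with chr13:106825001-106835000 at Ipo11, a nuclear import receptor, held 20.6 and 23.91 CPM in B6, 31.9 and 27.3 in B6-13D2, 5.90 and 13.0 in D2, and 8.03 and 7.202 in D2-13B6. The groups did not overlap (log2 difference −1.58, SE 0.28, edgeR FDR 9.37e-07). Of the 11 loops, 10 kept their call without the D2-13B6 line, and all 11 kept it without any 1 library.

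**Figure D1:**
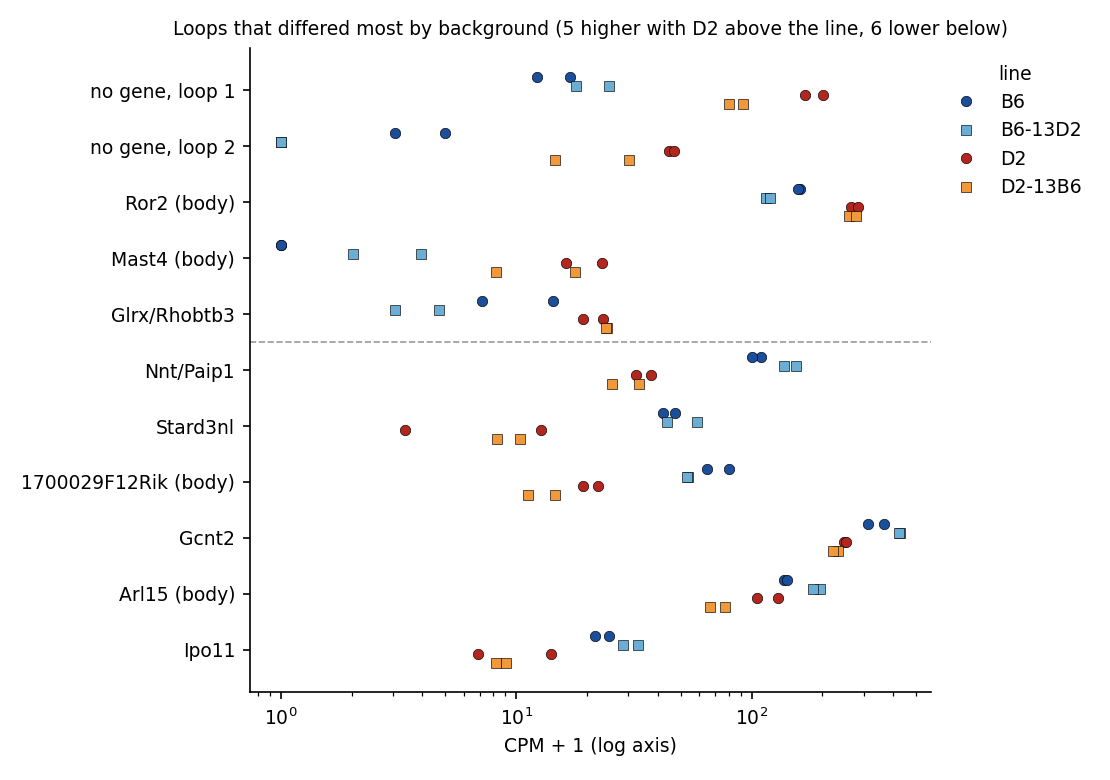
CPM plus 1 on a log axis for the 11 loops named by background, with 1 point per library and a marker per line. In the 5 upper loops the D2 and D2-13B6 points lie to the right of the B6 and B6-13D2 points, and in the 6 lower loops to the left, with D2 near B6 at Arl15.

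Many of the called loops shared anchors. They formed 46 groups of loops joined through common anchors, and 16 groups held 2 or more called loops, 58 in all. In 15 of these 16 all called loops went one way, and the exception held Ankrd31 and Fam169a. Ankrd31 encodes a protein of meiotic recombination.

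At Ankrd31, contacts of the anchor chr13:96780001-96800000 with chr13:96745001-96750000 were higher by 2.33 (SE 0.46, edgeR FDR 2.51e-05) and those with chr13:96760001-96765000 by 2.57 (SE 0.34, FDR 7.41e-12) on the log2 scale. Contacts inside the anchor were higher by 1.71 (SE 0.22, edgeR FDR 2.5e-12), and so was its loop to Fam169a at chr13:97060001-97090000 (1.71, SE 0.33, FDR 1.84e-05). In these 4 loops the backgrounds did not overlap. In the same group 3 loops were lower and ended on the anchor in 1700029F12Rik, and 1 of them also reached Fam169a (log2 difference −0.97, SE 0.18, edgeR FDR 3.21e-06).

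At Gcnt2 and Pak1ip1, a factor of ribosome assembly, 8 loops of chr13:40845001-41005000 were lower, by −1.48 to −0.46 on the log2 scale, and in 7 of them the groups did not overlap. Of 31 tested loops there 23 had a negative and 8 a positive difference. A run of 6 loops at chr13:98900001-99130000, which starts at Tnpo1, a nuclear import receptor, was higher by 0.40 to 1.06. Directly beside it, a loop with both anchors at Tnpo1, from chr13:98865001-98875000 to chr13:98880001-98895000, was lower by −0.53 (SE 0.15, edgeR FDR 0.0119) with no overlap between the groups. At Stard3nl 4 loops were lower by −2.61 to −1.75, and 1 of them reached Sfrp4, a secreted Wnt inhibitor. Klf6, a zinc finger transcription factor, had 3 loops in its group that were higher by 0.98 to 1.54, while Cap2, an actin regulator, had 3 lower by −1.50 to −0.73. Tfap2a, a transcription factor of neural crest and ectoderm, had 2 higher by 1.12 and 1.41.

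Near the end of the chromosome, Nnt and Paip1 had 3 loops that were lower by −1.98 to −1.22, and Tmem267 and Hmgcs1 had 3 at chr13:119485001-119700000. Hmgcs1 encodes an early enzyme of the sterol pathway. Contacts inside the Hmgcs1 anchor chr13:119685001-119700000 held 17.5 and 30.6 CPM in B6, 25.8 and 13.3 in B6-13D2, 5.90 and 19.6 in D2, and 4.38 and 2.16 in D2-13B6. The groups overlapped, with D2 replicate 2 above B6 replicate 1 and B6-13D2 replicate 2 (log2 difference −1.68, SE 0.31, edgeR FDR 3.22e-06).

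The loop from Tmem267 to Hmgcs1 was lower by a ratio of count rates of 9.36 (exact 95% interval 2.87 to 48.3, edgeR FDR 0.000768). The loop of chr13:119485001-119490000 with chr13:119595001-119605000, at both ends within 5 kb of a Tmem267 start, had 11 and 6 counts in B6, 4 and 8 in B6-13D2 and 0 in all 4 D2 background libraries. Setting that group at a floor of 3 counts, it was at least 10.4-fold lower with the D2 background (edgeR FDR 9.85e-07). This loop reached 5 counts only in B6 background libraries. It thus passed the filter through the group where it was high, and its fold is a description.

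Of the 88 called loops, 59 had the start of a coding gene inside or within 5 kb of an anchor and 29 had none. By span, contacts inside 1 anchor were called most often, 25 of 145 or 17.2%, against 19.7% of such loops on the other chromosomes without 11. Loops under 100 kb were called in 9.49% of cases (10.2% elsewhere) and loops of 100 to 500 kb in 5.14% (4% elsewhere). Of 32 tested loops of 500 kb to 2 Mb, 0 were called by edgeR's quasi-likelihood test and 3 had an unadjusted p under 0.05, against 3.33% called elsewhere. Counting only starts inside an anchor, the 355 loops without a coding start were called in 9.3% of cases here (15 higher and 18 lower) and in 14.1% on the other chromosomes without 11, a difference that was not tested.

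Counts were also added up per anchor, over every member that touched it. Of 1068 member anchors 673 were tested, and 40 were higher and 96 lower with the D2 background, 20.2% in all, against 24.8% of all tested anchors (11.8% higher and 12.9% lower). DESeq2 called 67 member anchors, 23 higher and 44 lower, or 11.2% against 12.4% of all (5.76% higher and 6.61% lower). Without the D2-13B6 line 47 were higher and 27 lower, or 11.6% of 636 tested, against 13.4% of all anchors in that fit (6.57% higher and 6.82% lower). The anchor of Ankrd31 at chr13:96780001-96800000 held 45.02 and 43.82 CPM in B6, 40.2 and 28.9 in B6-13D2, 123 and 156 in D2, and 110 and 107 in D2-13B6 (log2 difference 1.66, SE 0.12, edgeR FDR 1.34e-21). The anchor of Stard3nl held 79.0 and 79.3 CPM in B6, 107 and 92.3 in B6-13D2, 18.8 and 22.5 in D2, and 19.9 and 21.64 in D2-13B6 (log2 difference −2.09, SE 0.13, edgeR FDR 1.22e-23). In both the groups lay far apart. The other 3 anchors named as higher were those at 19.95 Mb, at 33.05 Mb and in Ror2, and the other 3 named as lower were those of Nnt with Paip1, of 1700029F12Rik and of Gcnt2. All 8 kept their call without the D2-13B6 line.

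The anchors that differed had sequence features that varied among themselves. The median share of annotated repeats was 30.54% in the 40 higher, 25.52% in the 96 lower and 23.88% in the 537 anchors not called, with median GC contents of 41.4%, 43.8% and 43.6%. Among the anchors of the loops named as higher, the anchor at 33.05 Mb was 64.4% repeats, the first Mast4 anchor 69.7%, and the pair at 19.95 Mb 41.2% and 54.2%. The anchors of Ankrd31 (30.1%) and Ror2 (25.2%), the second Mast4 anchor (26.3%), Glrx (26.2%) and Rhobtb3 (17.7%) held less. Among anchors of loops named as lower, that in 1700029F12Rik held 45.9% and the other 7 held 20.1% to 35.0%. The 395 anchors not tested had a median of 38.18%. The part of repeat content in these differences was not tested.

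Genes with known roles were followed by 7 lists of 73 genes on these stretches of chromosome 13, of which 58 had an anchor and 51 were tested, at 48 anchors. By background 3 were higher, 4 were lower and 44 were not called, with a median log2 difference of −0.06, against −0.08 for all tested member anchors and 0.0044 for all tested anchors, of which 24.8% were called (11.8% higher and 12.9% lower), while 20.2% of the member anchors were.

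Of 18 developmental transcription factors 7 had an anchor, 6 were tested, 2 were higher and none was lower (median log2 difference 0.21). Klf6 held 121 and 148 CPM in B6, 197 and 151 in B6-13D2, 204 and 214 in D2, and 168 and 171 in D2-13B6. The D2 background was higher (log2 0.31, SE 0.09, edgeR FDR 0.00665), although B6-13D2 replicate 1 exceeded both D2-13B6 libraries. Tfap2a was higher by 0.64 (SE 0.15, edgeR FDR 0.000714), with B6 replicate 2 above D2-13B6 replicate 1. Its difference was 0.17 (edgeR FDR 0.648) between the lines that share the B6 interval. Between those that share the D2 interval it was 1.11 (edgeR FDR 5.43e-05). Sox4 had 0.46 (SE 0.40, FDR 0.434) and Rreb1 −0.21 (SE 0.12, FDR 0.21).

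All 16 chromatin and transcription regulators had an anchor and 14 were tested, with 1 higher and 2 lower (median −0.09). Trim27, a ubiquitin ligase that also represses transcription, held 44.4 and 48.4 CPM in B6, 48.2 and 64.3 in B6-13D2, 70.6 and 78.8 in D2, and 62.8 and 69.3 in D2-13B6. It was higher with the D2 background (log2 0.45, SE 0.12, edgeR FDR 0.00243), with B6-13D2 replicate 2 just above the lower D2-13B6 library. E2f3, a cell cycle transcription factor, was lower (−0.78, SE 0.28, edgeR FDR 0.0272), with B6 replicate 2 below D2-13B6 replicate 2. Cdk7, the kinase of the general factor TFIIH, was also lower (−0.39, SE 0.10, edgeR FDR 0.0024). It held 88.2 and 89.9 CPM in B6, 125.5 and 113.4 in B6-13D2, 88.69 and 85.53 in D2, and 66.77 and 75.52 in D2-13B6. At Cdk7 the lines D2 and B6 were thus alike. Jarid2, a cofactor of the Polycomb repressive complex, had 0.12 (SE 0.07, FDR 0.216).

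Of 8 genes of sterol and intermediary metabolism 7 were tested, with 0 higher and 2 lower by edgeR, the same 2 that had an unadjusted p under 0.05 (median −0.24). The Hmgcs1 anchor held 23.4 and 31.0 CPM in B6, 30.9 and 19.8 in B6-13D2, 12.8 and 20.3 in D2, and 6.63 and 8.83 in D2-13B6 (log2 −1.19, SE 0.20, edgeR FDR 2.44e-06). The groups overlapped at D2 replicate 2. Nnt was lower by −1.66 (SE 0.12, edgeR FDR 4.74e-21), and Idi1, a later enzyme of the sterol pathway, had −0.24 (SE 0.14, FDR 0.224).

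The other 4 lists had no called gene by edgeR. They were 5 signalling ligands with 1 tested (Fgf10, −0.26), 7 receptors with 6 tested (median −0.12), 10 signalling inhibitors and kinases with 9 tested (median 0.18), and 9 cell cycle and genome maintenance genes with 8 tested (median −0.16). At an unadjusted p under 0.05 they held 0 ligands, 3 receptors, 2 inhibitors and kinases and 1 cell cycle gene. The start of Ror2 had 0.30 (SE 0.19, FDR 0.26), with −0.46 (SE 0.25, FDR 0.195) between the lines that share the B6 interval and 1.06 (SE 0.28, FDR 0.00428) between those that share the D2 interval. The receptor subunit Il6st, which carries the LIF signal, had 0.31 (SE 0.14, FDR 0.108).

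**Figure D2:**
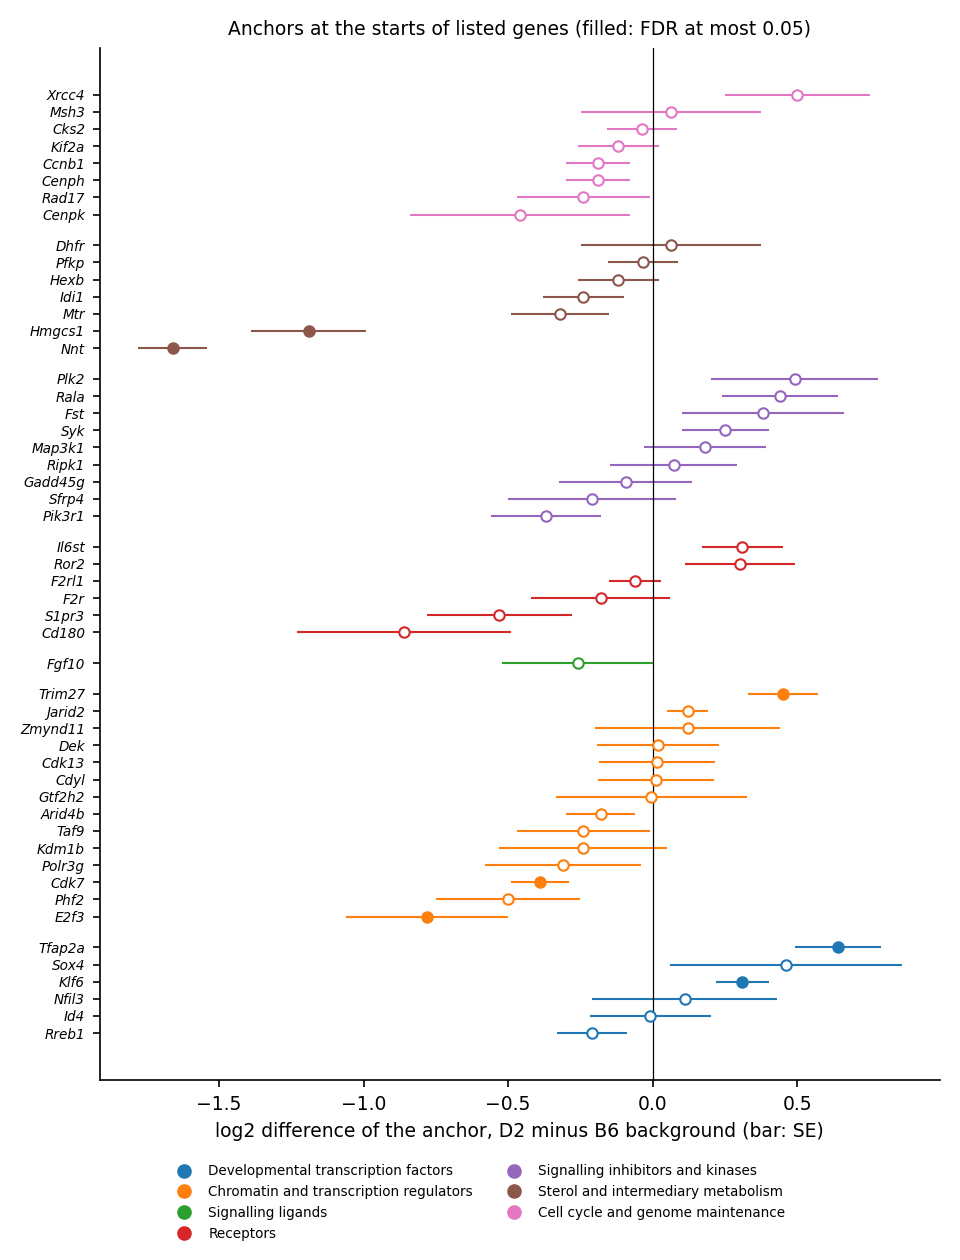
Log2 difference between the D2 and the B6 background of the anchors at the starts of 51 tested genes, grouped by 7 lists. Points are estimates, bars are SE and filled points passed an FDR of 0.05, with 3 genes to the right (Tfap2a 0.64, Trim27 0.45, Klf6 0.31) and 4 to the left (Nnt −1.66, Hmgcs1 −1.19, E2f3 −0.78, Cdk7 −0.39).

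The background could be compared in 2 pairs of lines that share no library, D2-13B6 minus B6 (both with a B6 interval) and D2 minus B6-13D2 (both with a D2 interval). In the pair with the B6 interval 19 members were higher and 45 lower, 64 in all, against 5.95% called among all tested loops (3.29% higher and 2.66% lower), with a member median of −0.26. In the pair with the D2 interval 20 were higher and 22 lower, 42 in all, against 3.57% (1.48% and 2.09%), with a median of 0.09. Of the 64 loops called in the first pair 57 had the same sign in the second (89.1%, against 83.3% on the other chromosomes without 11), and of the 42 called in the second all 42 had the same sign in the first (90.6% elsewhere). For the loops within 55 to 75 Mb 17 of 25 loops called in the first pair had the same sign in the second. These shares count loops with common anchors and were not tested. Leaving out 1 library lowered the first count to 38 and 34 without B6 replicates 1 and 2 and to 33 and 35 without D2-13B6 replicates 1 and 2. The second count was 25 without B6-13D2 replicate 2 and 21 without D2 replicate 1. With DESeq2 far fewer loops were called in each pair, as given in the closing section.

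In all, 26 loops were called in both pairs, 12 higher and 14 lower, each with 1 sign. In 24 of them the backgrounds did not overlap, which a call in both pairs favours, and the share elsewhere was not counted. On the other chromosomes without 11, 616 of 38431 tested loops were called in both, 606 with the same sign. Scaling each chromosome on its own kept 80 of the 88 calls of the averaged background effect and 44 of the 64 of the pair with the B6 interval. All calls lost were on the lower side, with 34 of 34 higher and 46 of 54 lower kept in the averaged effect and 19 of 19 higher and 25 of 45 lower in that pair. It moved the member median of the averaged effect to −0.03.

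**Figure D3:**
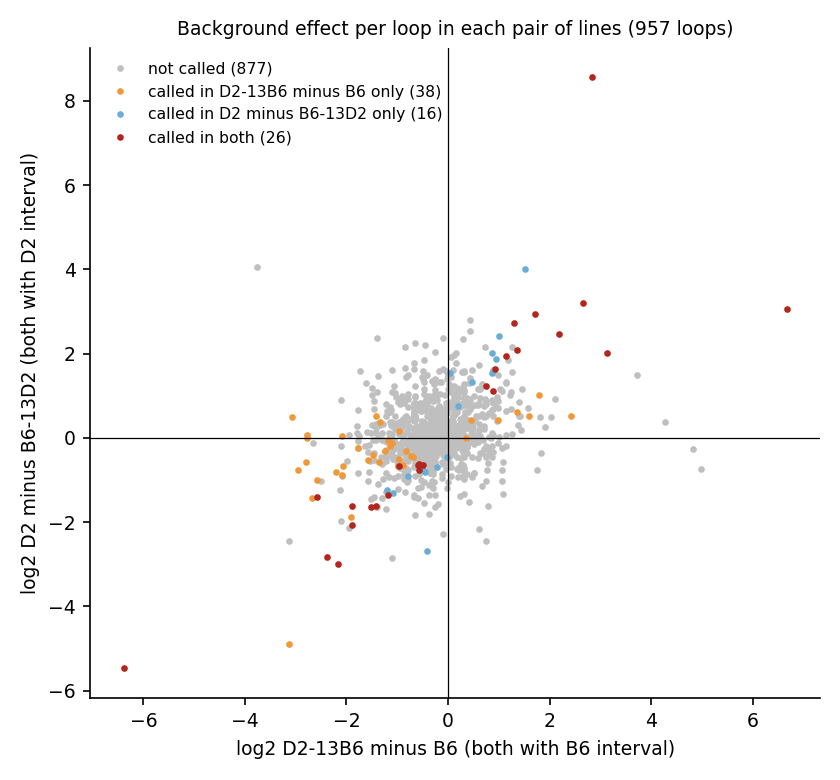
Log2 difference by background for the 957 tested loops, in the pair of lines with the B6 interval (x axis) against the pair with the D2 interval (y axis). The 26 loops called in both pairs lie in the upper right (12) and lower left (14) corners.

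Along the chromosome the members fell into 20 windows of 5 Mb, and 18 of these held a called loop, 7 of them in both directions. Below 55 Mb 13 of 495 tested loops were higher and 25 lower with the D2 background, and above 75 Mb 21 of 462 were higher and 29 lower. Over all tested loops 4.28% were higher and 4.57% lower. Summed over all members of a window, 2 windows were higher and 7 lower, 9 of 20, against 48.5% of all tested windows (26.4% higher and 22.1% lower). The largest difference was in the last window, from 115 to 120 Mb, which holds Nnt, Paip1 and Hmgcs1. It held 347 and 435 CPM in B6, 459 and 412 in B6-13D2, 260 and 237 in D2, and 171 and 168 in D2-13B6. Both D2 lines lay below both B6 lines (log2 difference −1.0, SE 0.10, edgeR FDR 7e-06), and 7 of its loops were lower and 0 higher.

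The window from 95 to 100 Mb, with Ankrd31, held 15 higher and 6 lower loops. Its sum was 3949 and 3935 CPM in B6, 3808 and 3742 in B6-13D2, 4583 and 4426 in D2, and 3957 and 4055 in D2-13B6. The D2 background was higher by 0.14 (edgeR FDR 0.00782), with D2-13B6 just above B6. The other windows called were 50 to 55 Mb (0.14) on the higher side, and 10 to 15 (−0.15), 40 to 45 (−0.18), 45 to 50 (−0.31), 80 to 85 (−0.32), 105 to 110 (−0.28) and 110 to 115 Mb (−0.20) on the lower side. With a scaling factor per chromosome 10 windows were called, 5 higher and 5 lower, or 50% against 43.5% of all windows (21.3% higher and 22.3% lower). That scaling added 5 to 10, 20 to 25, 25 to 30 and 75 to 80 Mb on the higher side and lost the calls at 10 to 15, 40 to 45 and 50 to 55 Mb.

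Without the D2-13B6 line 5 of 19 windows were called by edgeR, or 26.3% against 26.2% of all windows in that fit. They were 5 to 10 (0.27), 20 to 25 (0.34), 30 to 35 (0.21) and 95 to 100 Mb (0.23), all higher with D2, and 115 to 120 Mb (−0.72). The direction turned from lower to higher in 6 of the 19 windows. Besides 30 to 35 Mb they were 10 to 15 (0.0774) and 80 to 85 Mb (0.0331), both called as lower in the full set, and 15 to 20 (0.171), 90 to 95 (0.0397) and 100 to 105 Mb (0.107), called in neither fit. Over single libraries, the call at 95 to 100 Mb was lost without D2-13B6 replicate 1 (FDR 0.056) or 2 (FDR 0.104), and those at 10 to 15, 50 to 55 and 80 to 85 Mb without B6 replicate 2, D2 replicate 1, D2 replicate 2 or D2-13B6 replicate 2. The call at 50 to 55 Mb was also lost without B6-13D2 replicate 1 or D2-13B6 replicate 1. There were 6 calls without D2 replicate 1 or 2 and 5 without D2-13B6 replicate 2. In the full set, 1 window had all D2 background libraries above all B6 background libraries and 4 had all below. The share over all tested windows was not counted, so nothing particular to the members is read from this.

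By interval allele the members are described without a test, since their boundaries were drawn on this contrast. In the B6 background (B6-13D2 minus B6) the median log2 difference of the 957 loops was 0.0046, and 50.3% were positive. In the D2 background (D2 minus D2-13B6) the median was 0.34, and 709 of the 957 loops, 74.1%, were positive. Over the 5-Mb windows, the D2 libraries both exceeded both D2-13B6 libraries in all 20, by 0.07 to 0.70 with a median of 0.39. In 11 windows both D2-13B6 libraries were below all other 6, a count for which no share over all tested windows was made. In the B6 background 11 windows were positive and 9 negative, from −0.36 to 0.31.

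Counts past the FDR threshold serve here only to choose the loops named below, and nothing is read from them. They were 5 loops higher and 0 lower in the B6 background (0.879% of all tested loops were called, 0.561% higher and 0.318% lower), and 11 higher and 0 lower in the D2 background (0.91%, or 0.188% and 0.722%). In the averaged interval effect the calls were 18 higher and 1 lower (0.989%, or 0.445% and 0.544%). Over windows they were 1 higher and 1 lower in the B6 background (12.1% of all tested windows, or 6.96% and 5.17%) and 13 higher and 0 lower in the D2 background (23.1%, or 9.34% and 13.7%). The difference between both interval effects was past the threshold in 4 windows, all higher (15.9%). With a scaling factor per chromosome the member medians were 0.06 in the B6 and 0.09 in the D2 background. Under that scaling no window stayed called in the D2 background, and 8 of the 20 were negative there.

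The loop inside chr13:106900001-106950000 at Dimt1, an rRNA methyltransferase, and Ipo11 held 391 and 461 CPM in B6, 630 and 623 in B6-13D2, 435 and 473 in D2, and 442 and 395 in D2-13B6. B6-13D2 stood above the other 3 lines, and the log2 difference in the B6 background was 0.56. Contacts inside the Gcnt2 anchor chr13:40845001-40875000 also stood highest in B6-13D2, with 133 and 110 CPM in B6, 194 and 193 in B6-13D2, 124 and 115 in D2, and 112 and 97.2 in D2-13B6 (0.66). The loop of BC005537 with Acot13 and Tdp2, from chr13:24795001-24810000 to chr13:24830001-24840000, was high in both lines with the D2 interval. It held 15.4 and 11.96 CPM in B6, 27.8 and 38.4 in B6-13D2, 27.1 and 36.5 in D2, and 15.3 and 23.8 in D2-13B6, a log2 difference of 1.28 in the B6 background and of 0.98 averaged over both.

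In the D2 background the loop at 19.95 Mb described above was 1.10 higher in D2 than in D2-13B6. Contacts at Cetn3, a centrosome protein, between chr13:81780001-81790000 and chr13:81795001-81805000 held 21.62 and 30.55 CPM in B6, 45.3 and 39.9 in B6-13D2, 28.3 and 19.6 in D2, and 5.84 and 5.04 in D2-13B6. Contacts inside chr13:118015001-118040000 held 42.2 and 75.7 CPM in B6, 67.0 and 61.3 in B6-13D2, 70.8 and 50.9 in D2, and 27.7 and 22.3 in D2-13B6. In both loops D2-13B6 was below the other 3 lines, and D2 was within the range of the B6 background at the latter. In the averaged effect 2 more loops were named, one at Cwc27 and Srek1ip1 (1.27) and one near Lncenc1, a noncoding RNA of embryonic stem cells (0.86).

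At the boundaries themselves the values changed in different ways. The last window of members before the interval, 50 to 55 Mb, held 2223 and 1954 CPM in B6, 1705 and 1926 in B6-13D2, 2255 and 2163 in D2, and 2110 and 2098 in D2-13B6. Just outside the rule, the window from 55 to 60 Mb held 3063 and 2699 CPM in B6, 2774 and 2897 in B6-13D2, 2781 and 2813 in D2, and 2752 and 2912 in D2-13B6, with all lines alike. On the far side, the window from 70 to 75 Mb, outside the rule, held 642 and 640 CPM in B6, 611 and 557 in B6-13D2, 528 and 578 in D2, and 427 and 379 in D2-13B6.

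The first members after it, from 75 to 80 Mb, held 220 and 334 CPM in B6, 297 and 228 in B6-13D2, 379 and 356 in D2, and 285 and 268 in D2-13B6. The log2 differences in the D2 background were 0.07, −0.02, 0.45 and 0.41 over these 4 windows in order along the chromosome. Among these 4, D2-13B6 was lower than D2 on both sides of 75 Mb and hardly around 55 Mb. The next windows out and in did not follow this, with 0.36 at 45 to 50, 0.17 at 60 to 65, −0.20 at 65 to 70 and 0.70 at 80 to 85 Mb. With a scaling factor per chromosome the value at 50 to 55 Mb was −0.2445. The member loops nearest to 55 Mb (Cdhr2 and Rnf44 with Eif4e1b and Tspan17) and to 75 Mb (at Ell2) had at most 6.18 CPM in any library, too few to place a change.

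**Figure D4:**
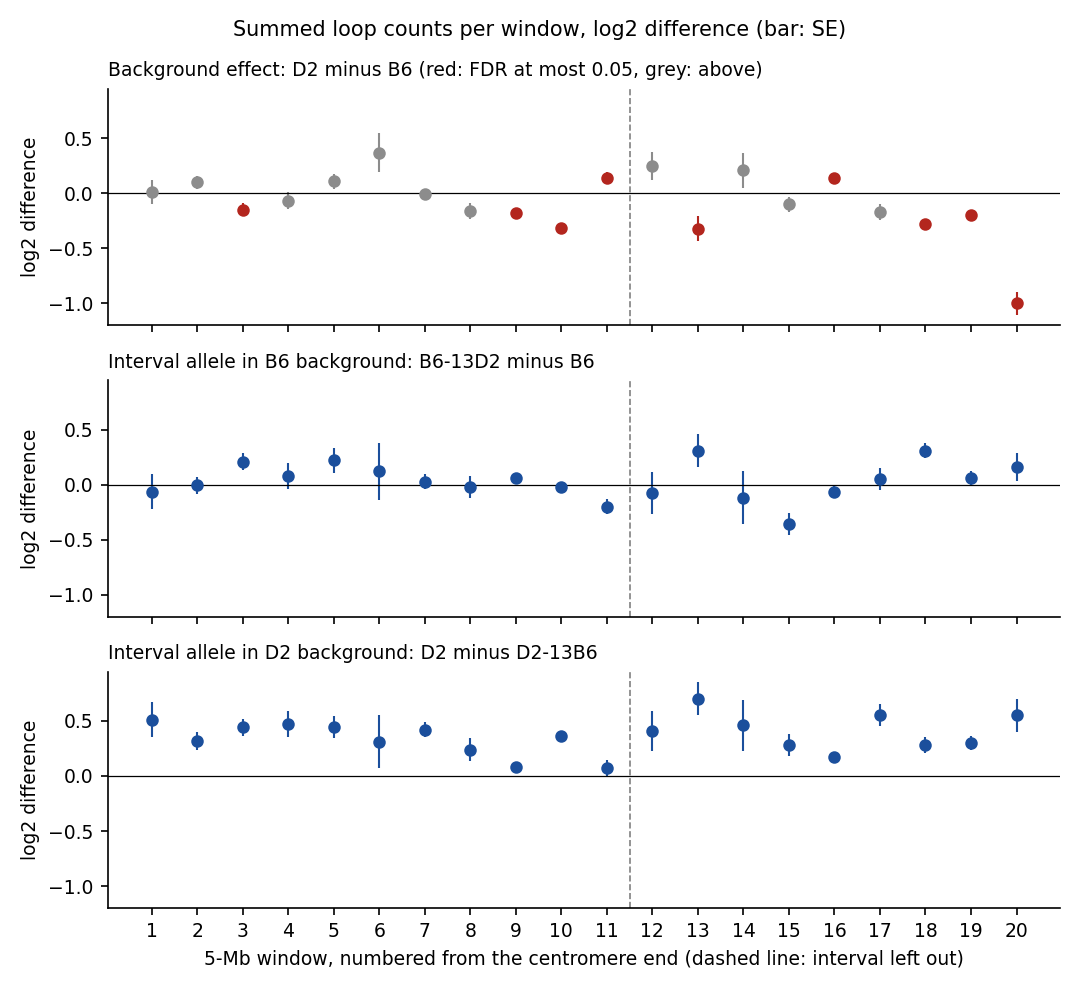
Log2 difference of the summed counts in each of the 20 windows, numbered along the chromosome, for the background effect and for the interval allele in the B6 and in the D2 background. Points are estimates and bars are SE, and all 20 points of the D2 background panel are above 0 (0.07 to 0.70), while those of the B6 background panel run from −0.36 to 0.31.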

How the data were processed

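Per the labels' protocols, the H3K27ac HiChIP libraries were made with a commercial micrococcal nuclease kit and sequenced from both ends (150 bp). The deposited counts are whole read pairs per loop, not normalized, as the values show. The submitters' processing notes name mm10, BWA 0.7.18, SAMtools 1.19.2 and edgeR 3.34.1 without their roles, and the loop caller and its settings are not given in the sources used here. The mm10 assembly (GRCm38) is of the B6 strain, and the part of the reference strain in differences by background was not tested.

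Member loops and gene lists were chosen with earlier results of these data known. Counts of all loops were fitted with edgeR 4.0.16 in R 4.3.3 (quasi-likelihood test, TMM factors, 1 mean per line, all 8 libraries), and p-values were adjusted by Benjamini-Hochberg over all tested loops. Loops needed 5 counts in 2 libraries, anchors 10 and 5-Mb windows 100, which left 44706 loops, 21222 anchors and 503 windows, of which 957, 673 and 20 were members. Fold changes are on the log2 scale, CPM are counts scaled to the TMM-adjusted library size, and an SE is the log2 difference over the square root of F. The background effect is the mean of D2 and D2-13B6 minus that of B6 and B6-13D2.

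The rule for named loops took called members whose backgrounds did not overlap, the 6 higher and 6 lower with the smallest FDR at least 2 Mb apart. It took 4 anchors per direction in the same way, and up to 3 loops per direction for each interval effect. Of these and of the listed genes, 1 loop and 1 gene are not reported here. Genes are those with a GRCm38 start within 5 kb of an anchor. Promoter sequences came from RefSeq (GRCm38.p6).

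On simulated counts for the background effect over all loops, edgeR called 17.5% of 97 loops changed by a factor of 2, 58.8% of 97 changed by a factor of 4, and 6 of 44973 unchanged ones. Replicates of each line differed beyond counting noise over all loops (chi-square over degrees of freedom 1.05 to 1.2) and were kept apart. Shares were compared with an exact permutation test in scipy 1.17.1. The alternatives were other scalings, filters, thresholds and window sizes, DESeq2 1.42.0, a replicate block, and leaving out replicates. Leaving out the D2-13B6 line, and the scaling factor per chromosome for windows, were added after the data were seen.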

Additional observations from a re-analysis of the deposited data

Results flagged for a closer look

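At the anchor of Nnt and Paip1 (chr13:119405001-119435000), D2 replicate 1 stood apart from the other D2 background libraries, with 44.3 CPM against 31.8 in the next. It was the 1 case among 94 groups of 4 libraries looked at, where chance gives about 1 in 20.

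The interval effect stood apart between backgrounds in 4 windows and in 2 of the 8 anchors named above, by the interaction of the edgeR fit (effect in the D2 background minus that in the B6 background). Over all 673 member anchors 17 were past the same threshold (2.53%, 15 higher and 2 lower), against 4.3% of all tested anchors. On the log2 scale the differences were 0.40 for 30 to 35 Mb, 0.38 for 45 to 50 Mb, 0.64 for 90 to 95 Mb and 0.50 for 100 to 105 Mb. They were 1.5 for the anchor at chr13:33050001-33065000 and 1.1 for that at chr13:96995001-97025000. Over all tested windows 15.9% were called in this contrast, and the rule for the loops used the interval effects, so these values are a description and no test is read from them.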

How the results depend on the processing

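At an FDR of 0.01 there remained 36 calls in the pair with the B6 interval, 2, 4 and 6 in the B6, D2 and averaged interval effects, 90 anchors, and 0, 7 and 2 windows for the interval in the B6 and the D2 background and for the interaction, and the same-sign share was 97.2%. With library totals the interval effect in the B6 background called 3 loops and 0 windows and the interaction 8 windows, and with DESeq2's size factors 3 loops and 7 windows. DESeq2 itself called 38 loops by background, 20 and 18 in the pairs with the B6 and the D2 interval, 2, 3 and 4 in the interval effects, and 67 anchors. Scaling by chromosome gave 8, 4 and 10 loops in the interval effects, and 0 windows in the D2 background and 1 in the interaction. It turned 95 to 100, 105 to 110 and 110 to 115 Mb in the D2 background to −0.146, −0.0355 and −0.015. A stricter filter gave 19 loops for the interval in the D2 background. No filter gave 14, 3 and 2 calls for the background effect and its pairs and 0, 0 and 0 for the interval effects. Windows of 2 Mb gave 16, 4, 22 and 11 calls for the background effect, both interval effects and the interaction, and without loops inside 1 anchor the B6 background gave 1 and the interaction 2. Without the D2-13B6 line there were 44 loops, 74 anchors and 5 windows by background, and 10 to 15, 30 to 35 and 80 to 85 Mb turned to 0.0774, 0.206 and 0.0331, as did 3 windows called in neither fit. The cause of these changes was not tested.

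The replicate numbers did not pair the samples, since deviations of same-numbered libraries correlated by −0.045 to 0.006. With a replicate block, calls were 82 loops, 123 anchors and 8 windows by background, 53 and 37 loops in its pairs, and 2, 10 and 15 loops in the interval effects. Windows numbered 1 and 11 for the interval and 3 for the interaction.

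Leaving out 1 replicate gave 72 to 83 loops, 99 to 128 anchors and 5 to 10 windows by background, 33 to 68 and 21 to 44 loops in its pairs, and 1 to 3, 3 to 14 and 5 to 19 loops in the interval effects. Windows ranged over 1 to 4 and 5 to 16 for the interval and 1 to 14 for the interaction, with the lowest counts in the D2 background and the interaction without D2 replicate 1, the share difference over −0.186 to −0.0060 points, and the same-sign share over 83.9% to 100%. Of values for single loops, anchors and windows under all alternatives, 1422 kept direction and call, 69 gained the call and 131 lost it with the direction kept, 55 that were not called turned direction, and 6 called in the full set or the alternative reversed. Depth limits single loops, with a median of 6 to 9 counts.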
